A study of Homo sapiens with 6 samples.

Results

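Metallothioneins, the transcription factor MTF1 and the zinc importer SLC39A6 were followed in human breast carcinoma cells that differ in their response to tamoxifen. All probe sets annotated to 1 of 10 chosen genes alone were taken, namely MT1E, MT1F, MT1G, MT1H, MT1M, MT1X, MT2A, MT3, MTF1 and SLC39A6. They numbered 16 of the 22215 probe sets tested, and the 10 genes are among 11963 with a probe set of their own. No probe set annotated to several genes included a member. Each probe set was kept separate. A name ending in _x_at marks a probe set that can bind related transcripts, and 9 of the 12 metallothionein probe sets carry that mark.

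RNA came from 6 cultures, each measured on its own Affymetrix array. The 3 SUM44 cultures, of an invasive lobular line labelled positive for estrogen and progesterone receptors and sensitive to tamoxifen, had been exposed for 24 hours to 4HT (4-hydroxytamoxifen) at 500 nM, a potent metabolite of tamoxifen that blocks the estrogen receptor. The 3 LCCTam cultures, of a line with the same tumour labels but labelled resistant to tamoxifen, had been kept without 4HT for 14 days. LCCTam is known as a derivative of SUM44 that was selected for growth in tamoxifen, and whether it is 1 clone is not given in the sources used here. The labels give the same growth medium for both lines, SFIH (Ham's F12). Line and drug exposure differ together in the comparison of LCCTam with SUM44, so their parts cannot be told apart. The contrast asks how transcripts of the resistant line differ from those of the sensitive line exposed to 4HT. Levels are on the log2 scale of RMA, as deposited, and differences are LCCTam minus SUM44, so that 1 is a doubling.

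Metallothioneins are small proteins made largely of cysteines that hold zinc and copper, and they buffer free metal and take up oxidants. Many of their genes are switched on by MTF1, a zinc-sensing factor that binds short metal response elements, and several of them also by glucocorticoids. Zinc enters the cytosol through SLC39 (ZIP) carriers and leaves it through SLC30 (ZnT) carriers. SLC39A6, also called LIV-1, was first known as an estrogen-regulated gene of breast cancer cells.

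The region before the start site was read for 5 of the 10 members, MT2A, MT1X, MT1H, MTF1 and SLC39A6, from RefSeq promoter windows of build GRCh38.p14. It was also read for SLC30A1, a zinc exporter and known MTF1 target. The 250 bases before each start were searched on both strands for the metal response element core, spelled TGCACNC or TGCGCNC. The sequences of the metallothionein members with a window, of SLC39A6 and of SLC30A1 are shown so that the number and place of the cores can be seen. Matches are in capitals, on either strand:
MT2A (chr16:56608334-56608583, plus strand): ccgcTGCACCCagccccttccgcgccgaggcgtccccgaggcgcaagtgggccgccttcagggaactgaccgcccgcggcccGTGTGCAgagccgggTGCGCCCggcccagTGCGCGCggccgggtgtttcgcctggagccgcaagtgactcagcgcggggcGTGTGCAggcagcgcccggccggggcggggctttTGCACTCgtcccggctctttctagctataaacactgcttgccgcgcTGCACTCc
MT1X (chr16:56682220-56682469, plus strand): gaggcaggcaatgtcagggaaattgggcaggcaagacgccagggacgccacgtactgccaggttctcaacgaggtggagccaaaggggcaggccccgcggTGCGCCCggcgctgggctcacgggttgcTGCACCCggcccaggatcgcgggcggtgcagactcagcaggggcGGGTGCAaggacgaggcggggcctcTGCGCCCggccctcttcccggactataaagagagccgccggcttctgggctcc
MT1H (chr16:56669564-56669813, plus strand): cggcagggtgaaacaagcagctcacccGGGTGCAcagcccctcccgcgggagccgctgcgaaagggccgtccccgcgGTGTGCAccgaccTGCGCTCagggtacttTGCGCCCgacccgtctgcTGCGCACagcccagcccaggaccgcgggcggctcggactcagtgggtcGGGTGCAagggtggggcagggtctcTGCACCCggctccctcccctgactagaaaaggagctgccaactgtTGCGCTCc
SLC39A6 (chr18:36129341-36129590, minus strand): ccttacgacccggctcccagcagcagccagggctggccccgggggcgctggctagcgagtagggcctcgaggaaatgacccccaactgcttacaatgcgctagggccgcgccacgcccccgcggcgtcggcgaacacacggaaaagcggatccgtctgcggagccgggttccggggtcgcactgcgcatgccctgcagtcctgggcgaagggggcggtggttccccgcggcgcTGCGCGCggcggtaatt
SLC30A1 (chr1:211579162-211579411, minus strand): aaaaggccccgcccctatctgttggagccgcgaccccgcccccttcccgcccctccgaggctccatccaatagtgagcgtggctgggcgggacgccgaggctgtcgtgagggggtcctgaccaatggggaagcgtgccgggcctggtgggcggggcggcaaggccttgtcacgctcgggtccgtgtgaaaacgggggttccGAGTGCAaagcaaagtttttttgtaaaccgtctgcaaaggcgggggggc

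The MT2A window held 7 matches, that of MT1X held 4 and that of MT1H held 8. SLC39A6 and SLC30A1 had 1 each, and the window of MTF1 itself had 0. Among genes that are no members, MT4 and MT1B held 3 each and the windows of SLC39A8 0 or 1. Of 35116 windows of the same length in the RefSeq table, 24.8% held at least 1 match, 0.37% at least 4 and 0.0313% at least 7. In MT1X and MT1H a match began 53 bases before the start and in MT2A 54 bases before it. These are matches of letters, and binding was not measured.

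**Figure D1:**
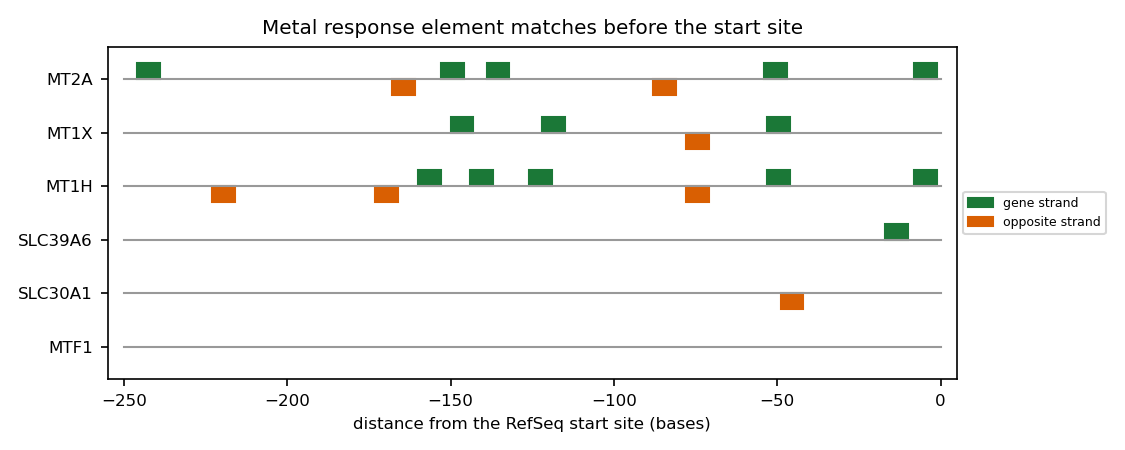
Positions of metal response element matches in the 250 bases before the RefSeq start of 6 genes, with the distance from the start in bases on the horizontal axis. Boxes above a line are matches on the gene's strand and boxes below it on the opposite strand, and the 3 metallothioneins hold 4 to 8 matches against 0 or 1 in SLC39A6, SLC30A1 and MTF1.

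The arrays were alike within SUM44, with correlations of 0.994 to 0.995 over probe sets, and less alike within LCCTam, at 0.963 to 0.989. LCCTam replicate 1 correlated with SUM44 at 0.976 to 0.978 and LCCTam replicate 3 at 0.933 to 0.95. By limma, 3002 of 22215 probe sets (13.5%) passed a Benjamini-Hochberg adjusted p under 0.05, and such probe sets are named as called here. They were higher in LCCTam for 7.55% of all probe sets and lower for 5.96%. That count was 6990 without LCCTam replicate 1, 1110 without LCCTam replicate 2, and 1185, 1354 and 1166 without SUM44 replicates 1, 2 and 3. Poly-A spike-in controls averaged 6.66 in SUM44 and 7.09 in LCCTam, higher by 0.43. By replicate 1, 2 and 3 they stood at 6.82, 6.74 and 6.42 in SUM44 and at 6.80, 7.11 and 7.37 in LCCTam. LCCTam replicate 1 thus lay within the SUM44 range. The 3' minus 5' signal of the GAPDH controls ranged from -0.06 to 0.20 in SUM44 and from 0.00 to 0.11 in LCCTam. That of the ACTB controls ranged from -0.11 to -0.05 in SUM44 and from -0.05 to 0.21 in LCCTam, a difference of 0.17. The part of these controls in the results was not tested. None of 22 probe sets for markers of mesenchymal, blood, endothelial and basal cells was called by limma, with 1 at an unadjusted p under 0.05, and the mean level of that list was 5.46 to 5.57 in SUM44 and 5.44 to 5.71 in LCCTam. Of 17 probe sets for luminal epithelial markers 3 were called higher, all of GATA3, and 8 lower, of ESR1, KRT8, KRT18 and KRT19 (4 to 12 called in all with an array left out), and the keratin KRT18 stood at 13.27 or more in all 6 arrays. In such bulk RNA, fewer cells of a type and less RNA per cell cannot be told apart.

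Metallothionein transcripts were higher in LCCTam. Of the 12 metallothionein probe sets 7 were called higher, none lower and 5 not called, against 7.55% of all probe sets called higher. Those called are annotated to 5 genes, MT2A, MT1X, MT1F, MT1H and MT1E. All 7 carry the cross-binding mark, so the 5 genes may not be separate readings. None of the 3 probe sets without the mark was called. The groups did not overlap at 8 of the 12, all higher in LCCTam, against 20% of all probe sets without overlap in that direction and 33.1% in either. Over the 12 the median difference was 0.93, beside 0.07 over all probe sets.

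MT2A, the broadly expressed metallothionein of most human tissues, was measured by 212185_x_at. Its log2 level was 10.02, 9.89 and 9.86 in SUM44 replicates 1, 2 and 3 and 11.73, 11.99 and 11.76 in LCCTam. All 3 LCCTam cultures were thus well above all SUM44 cultures, and each group was tight. The difference was 1.90 ± 0.11 (SE), or 3.74-fold (adjusted p = 0.000121).

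MT1X, an MT1 isoform at the far end of the gene cluster, differed most among the members. Its probe set 204326_x_at stood at 7.96, 7.90 and 7.69 in SUM44 and at 10.26, 10.22 and 10.11 in LCCTam, a difference of 2.35 ± 0.11, or 5.09-fold (adjusted p = 4.86e-05). The other, 208581_x_at, stood at 9.45, 9.12 and 9.17 in SUM44 and at 11.31, 11.31 and 11.64 in LCCTam, 4.52-fold higher (2.18 ± 0.14). Both probe sets of MT1X gave a similar size, and in both the gap between groups was several times the range within a group.

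MT1F, another MT1 isoform, had closely matching probe sets. By 217165_x_at it stood at 8.42, 8.30 and 8.39 in SUM44 and 9.47, 9.73 and 9.85 in LCCTam, 2.48-fold higher (1.31 ± 0.12, adjusted p = 0.000885). By 213629_x_at it was 2.46-fold higher. Neither probe set had an LCCTam culture within the SUM44 range.

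MT1H, the gene with the most metal response element matches in the windows above, was read by 206461_x_at alone. It stood at 9.59, 9.27 and 9.00 in SUM44 and at 10.36, 10.39 and 10.31 in LCCTam. The SUM44 cultures were spread over 0.59 and the LCCTam cultures over 0.09. The difference was 1.07 ± 0.15, or 2.09-fold (adjusted p = 0.00532).

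MT1E and MT1G are each read by a pair of probe sets that gave unlike differences. For MT1E, 216336_x_at was 1.73-fold higher in LCCTam (7.87 ± 0.11 SD in SUM44 and 8.66 ± 0.08 in LCCTam, n = 3 each, adjusted p = 0.00377 by limma). The second MT1E probe set, 212859_x_at, gave 8.23, 8.16 and 7.93 in SUM44 and 8.20, 8.51 and 8.68 in LCCTam. LCCTam replicate 1 lay within the SUM44 range there, and the difference of 0.35 ± 0.15 was not called (adjusted p = 0.17). Without LCCTam replicate 1 the adjusted p was 0.0218, while calls over all probe sets rose from 3002 to 6990. Leaving out any other array gave an adjusted p of 0.26 to 0.425.

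For MT1G, 204745_x_at gave 9.13, 9.03 and 8.78 in SUM44 and 9.58, 9.47 and 9.30 in LCCTam. The groups did not overlap, but the difference of 0.47 ± 0.13 missed the threshold (adjusted p = 0.0535). It passed without LCCTam replicate 3 (0.0381), under both filters on dim probe sets (0.0423 and 0.0468) and with the replicate number as a block (0.0297). It did not pass with any other array left out (0.0505 to 0.183), after cyclic loess (0.138) or for the mean of the MT1G probe sets (0.139). The MT1G probe set without the cross-binding mark, 210472_at, stood at 5.62 in both groups, a difference of 0.00 with a 95% interval from -0.23 to 0.23. That level is close to the lower quartile of all probe set means, 5.49, and without detection calls it cannot be told from background.

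MT1M, an MT1 isoform, and MT3, the metallothionein best known from the brain, are each read by a probe set without the cross-binding mark. MT1M was at 4.29 ± 0.08 in SUM44 and 4.39 ± 0.18 in LCCTam (SD, n = 3), below that lower quartile, so the same limit holds. MT3 was at 6.60, 6.54 and 6.72 in SUM44 and 6.40, 6.68 and 6.95 in LCCTam, so the groups overlapped. Their 95% intervals for the difference ran from -0.17 to 0.38 for MT1M and from -0.29 to 0.41 for MT3.

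Of the 9 metallothionein probe sets with the cross-binding mark 7 were called higher and 2 were not called. Of the 3 without it none was called by limma, with 0 at an unadjusted p under 0.05, and these were also the dimmest, with SUM44 means of 4.29, 5.62 and 6.62 against 7.85 or more for the marked ones. Among all 2428 probe sets with the mark 12.5% were called, 7.45% higher and 5.07% lower. Correlations among the 9 marked sets over the 6 arrays were 0.61 or more, with a median of 0.96 over 36 pairs that share the difference between the 2 groups. Within LCCTam the sets did not rank the arrays alike, with replicate 1 highest for MT1G by 204745_x_at and lowest for MT1F by 213629_x_at. Because these transcripts are near-identical paralogs, how much of a value belongs to the gene named, rather than to a relative, was not tested. Of 8 other metallothionein genes 2 had a probe set of their own. MT1HL1, an MT1-like gene on chromosome 1, was 2-fold higher, at 9.60 ± 0.10 and 10.60 ± 0.06 (SD, n = 3; adjusted p = 0.00119 by limma for 211456_x_at, also marked). MT4, known from squamous epithelia, differed by 0.53 ± 0.16 and was not called (adjusted p = 0.0694).

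**Figure D2:**
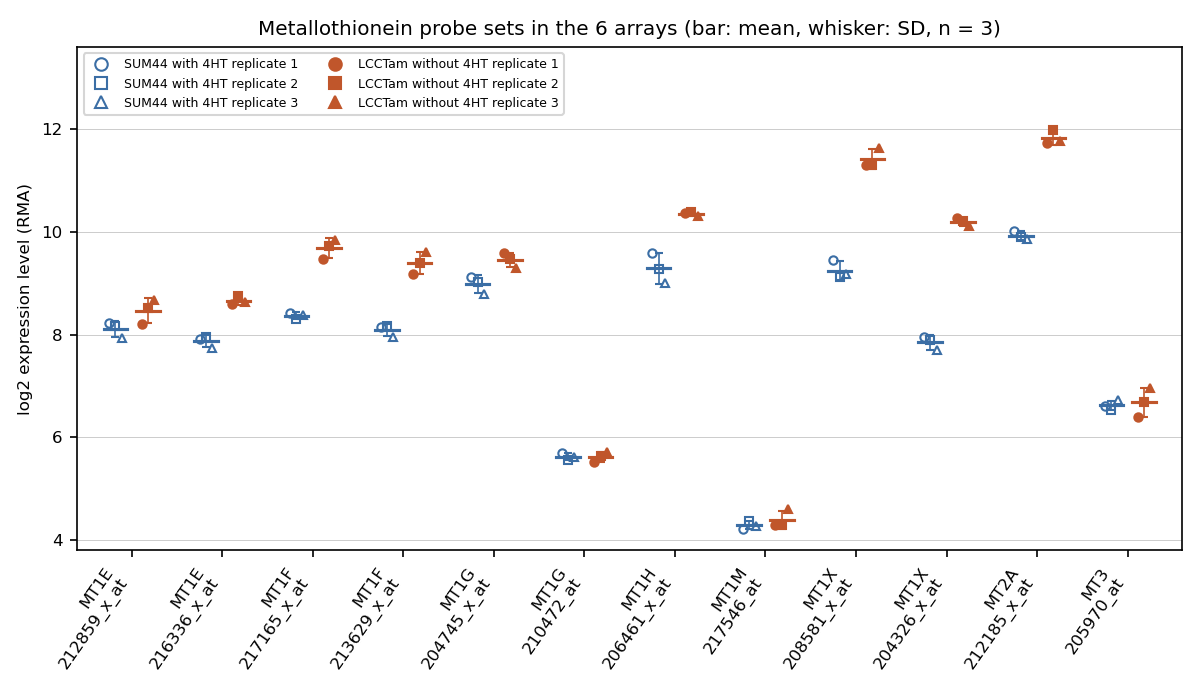
Log2 expression level of the 12 metallothionein probe sets in each of the 6 arrays, with bars for the mean and whiskers for the SD of 3 arrays. LCCTam points lie above all SUM44 points for MT2A, both MT1X, both MT1F and MT1H probe sets, while MT1M, MT3 and 210472_at of MT1G overlap.

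MTF1, a zinc sensor known to switch on many metallothionein genes, showed no called difference. Its probe set 205322_s_at stood at 7.97, 8.05 and 7.77 in SUM44 and 7.98, 7.89 and 7.69 in LCCTam, and 205323_s_at at 7.48, 7.38 and 7.49 and at 7.62, 7.47 and 7.18. The groups overlapped in both. The differences were -0.08 and -0.02, and the 95% intervals, from -0.36 to 0.21 and from -0.33 to 0.28, exclude a change of the size seen for MT2A or MT1X in either direction. Array levels say nothing of the activity of the protein.

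SLC39A6, the zinc importer, was lower in LCCTam by both of its probe sets. By 202088_at it stood at 10.89, 10.51 and 10.77 in SUM44 and at 9.87, 8.76 and 7.94 in LCCTam. By 202089_s_at it stood at 10.25, 9.84 and 10.41 in SUM44 and at 9.26, 7.92 and 7.41 in LCCTam. The groups did not overlap, and LCCTam replicate 1 lay nearest to SUM44 in both. The LCCTam cultures ranged over 1.93 and 1.85, against 0.26 for MT2A in the same arrays. The differences were -1.86 ± 0.43 (3.64-fold lower, adjusted p = 0.0297) and -1.97 ± 0.43 (3.91-fold lower, adjusted p = 0.0256), beside 5.96% of all probe sets called lower. From LCCTam replicate 1 to replicate 3 SLC39A6 fell while the poly-A controls rose, and a link was not tested.

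The SLC39A6 call depended on which arrays entered. Without LCCTam replicate 1 the differences were -2.37 and -2.50 (adjusted p = 0.00023 and 0.000121), and without LCCTam replicate 3 they were -1.41 and -1.57 (adjusted p = 0.0258 and 0.035). Without LCCTam replicate 2, or without SUM44 replicate 1, 2 or 3, neither probe set was called, with adjusted p from 0.0646 to 0.115, while the differences stayed between -1.78 and -2.13. The 7 called metallothionein probe sets kept their call with any array left out, the highest adjusted p being 0.0353, for MT1H.

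**Figure D3:**
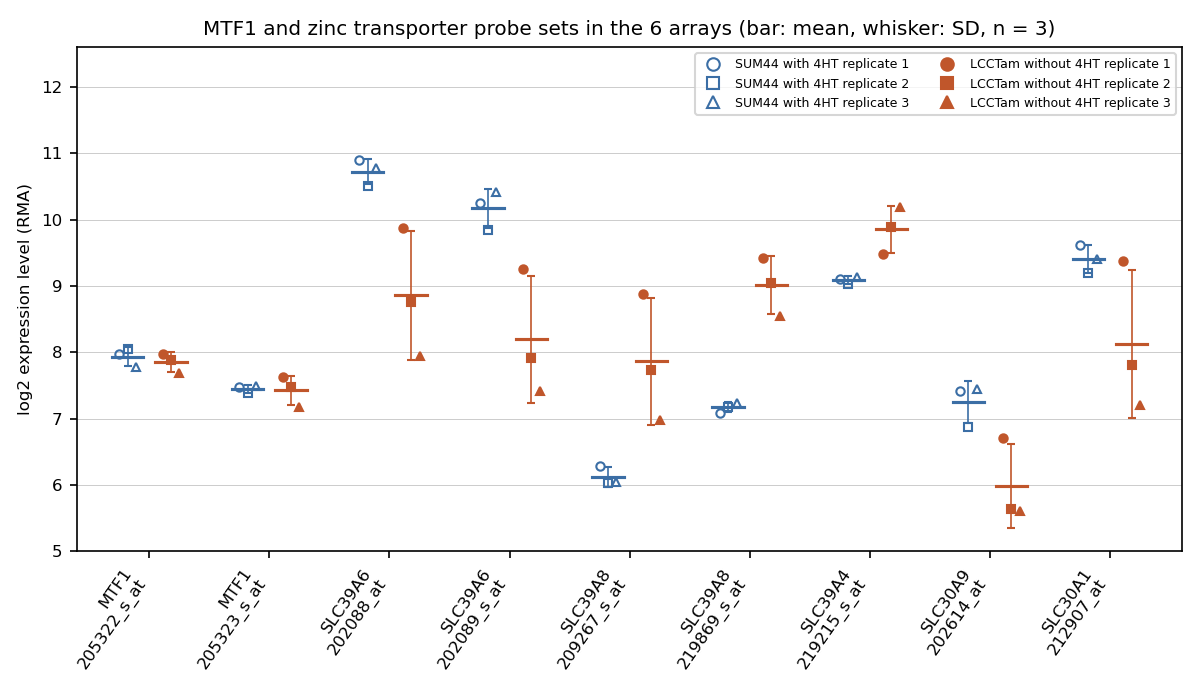
Log2 expression level of MTF1 and of 5 zinc transporters in each of the 6 arrays, with bars for the mean and whiskers for the SD of 3 arrays. Zinc transporter probe sets that were not called are left out, other than that of SLC30A1. SLC39A6 is lower and SLC39A8, by its called probe sets, higher in every LCCTam culture. The LCCTam cultures spread widely in both, in SLC30A9 and in SLC30A1, while MTF1 overlaps between groups.

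Among other zinc carriers 4 of 20 probe sets were called, and 16 were not, beside 13.5% called over all probe sets. Of 13 other SLC39 importers 7 were measured, by 12 probe sets, of which 3 were called higher, none lower and 9 not called, beside 7.55% of all probe sets called higher. The median over these 12 was 0.18. Those called belonged to SLC39A8 and SLC39A4.

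SLC39A8, a carrier of zinc, manganese and cadmium, was higher by 219869_s_at, from 7.09, 7.18 and 7.24 in SUM44 to 9.42, 9.05 and 8.55 in LCCTam. That is 3.57-fold (1.84 ± 0.21, adjusted p = 0.00194). By 209267_s_at it rose from 6.29, 6.03 and 6.04 to 8.88, 7.73 and 6.98, 3.35-fold (adjusted p = 0.0345). In both, LCCTam replicate 1 was highest and replicate 3 lowest, and no LCCTam culture reached down to SUM44. Dimmer probe sets of SLC39A8, 209266_s_at and 216504_s_at, gave differences of 0.22 and 0.23, neither of them called. Averaged over its 4 probe sets, SLC39A8 differed by 1.01.

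SLC39A4, the intestinal zinc importer that is lost in acrodermatitis enteropathica, was at 9.10, 9.03 and 9.14 in SUM44 and 9.48, 9.88 and 10.19 in LCCTam, 1.7-fold higher (0.76 ± 0.18, adjusted p = 0.0309). SLC39A7, which releases zinc from the endoplasmic reticulum and is a partner of SLC39A6 in zinc signalling, differed by -0.12 with a 95% interval that spans 0 (adjusted p = 0.521). Only 1 of the 3 importer calls, 219869_s_at of SLC39A8, remained without any of SUM44 replicates 1, 2 and 3 and LCCTam replicate 2.

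Of 10 SLC30 exporters 7 were measured, by 8 probe sets, with 1 called lower, none higher and 7 not called, and a median of -0.15. That is 1 of 8 beside 5.96% of all probe sets called lower. The called one was SLC30A9, a mitochondrial zinc transporter, at 7.41, 6.88 and 7.45 in SUM44 and 6.71, 5.63 and 5.61 in LCCTam (-1.27 ± 0.31, adjusted p = 0.037). It lost its call without any of the 5 arrays other than LCCTam replicate 1.

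SLC30A1, the zinc exporter of the plasma membrane, was looked at after its values were seen. It stood at 9.61, 9.19 and 9.41 in SUM44 and at 9.37, 7.80 and 7.21 in LCCTam. LCCTam replicate 1 lay within the SUM44 range and the other two were below it. The difference of -1.27 ± 0.49 was not called (adjusted p = 0.135), and without LCCTam replicate 1 it was -1.89 (adjusted p = 0.000292). Without that array 3 exporter probe sets were called, all lower, beside 6990 in place of 3002 over all probe sets. Leaving out any other array gave SLC30A1 no call, with differences as small as -0.82 and adjusted p up to 0.347.

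**Figure D4:**
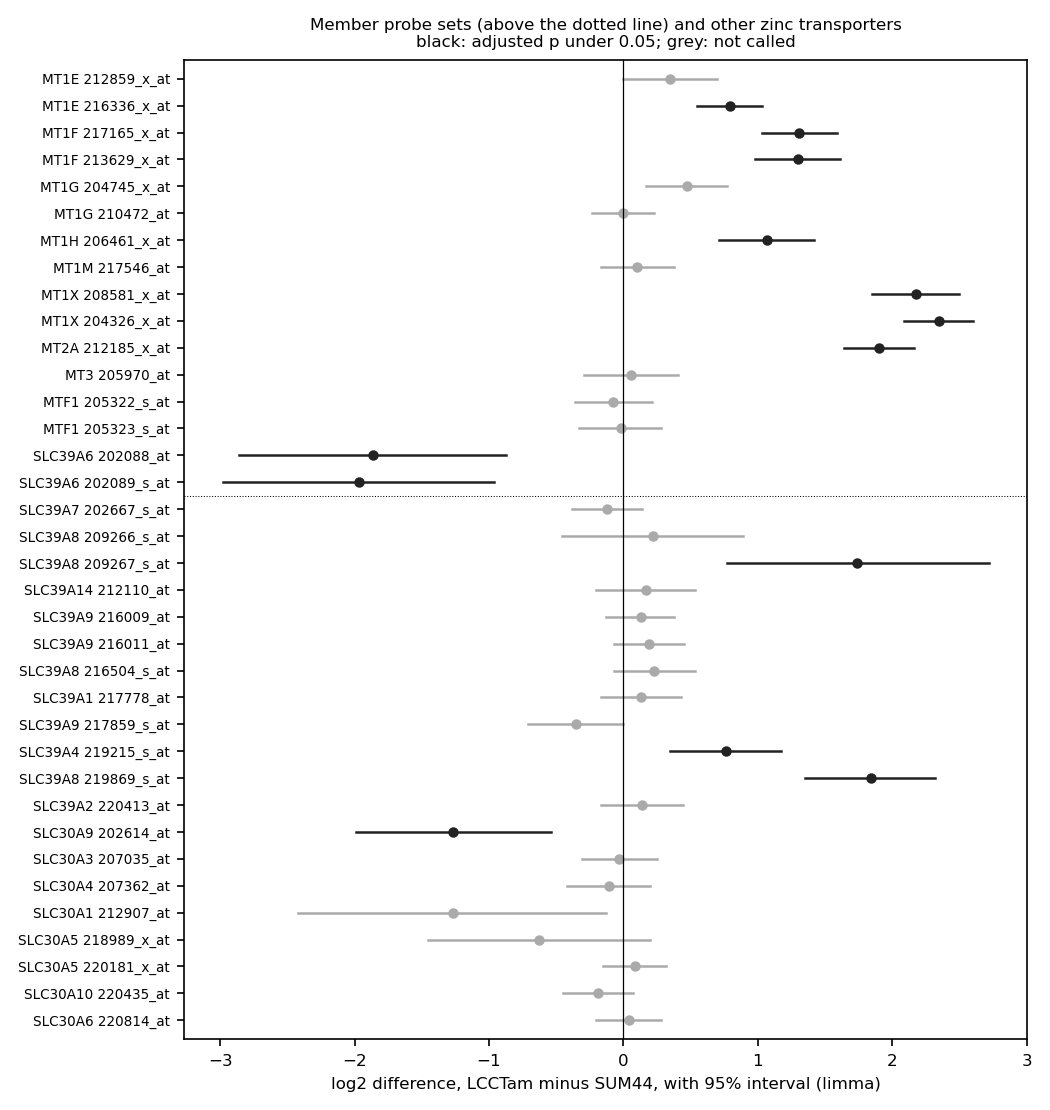
Log2 difference, LCCTam minus SUM44, with its 95% interval, for the 16 member probe sets and for 20 probe sets of other zinc transporters. Metallothioneins with called differences lie between 0.79 and 2.35, SLC39A6 lies at -1.86 and -1.97 with wide intervals, and both intervals of MTF1 include 0.

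MTF1 has known targets beside the metallothioneins. Of 8 listed 6 were measured, by 10 probe sets, and these include that of SLC30A1, counted above with the exporters. None was called higher, 2 were called lower and 8 were not called, beside 7.55% and 5.96% of all probe sets called higher and lower. Both calls were of GCLC, the catalytic subunit of the enzyme that starts glutathione synthesis. By 202923_s_at GCLC stood at 10.73, 10.72 and 10.77 in SUM44 and 9.87, 9.26 and 9.10 in LCCTam, 2.52-fold lower (adjusted p = 0.00542). The selenoprotein SELENOW, at 0.15, and the transcription cofactor CITED2, at 0.37 and 0.42, were not called. The list had 5 calls, 2 higher and 3 lower, without LCCTam replicate 1, and 1 call without LCCTam replicate 2 or any SUM44 array. Over all probe sets calls rose from 3002 to 6990 without LCCTam replicate 1.

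Metals that induce metallothioneins, such as cadmium, also induce heat shock and antioxidant genes. Of 14 probe sets of 9 measured genes of that kind 2 were called higher, 7 lower and 5 not called. Over all probe sets 7.55% were called higher and 5.96% lower. The median of the 14 was -0.73, beside 0.07 over all probe sets. HMOX1, the heme oxygenase that cadmium and oxidants induce together with metallothioneins, stood at 9.53, 9.79 and 9.97 in SUM44 and 6.64, 7.24 and 7.53 in LCCTam, 6.17-fold lower (-2.63 ± 0.23, adjusted p = 0.000711). NQO1, a quinone reductase, was lower by all 3 of its probe sets, with differences from -1.77 to -0.95. TXNRD1, a thioredoxin reductase, was 5.22-fold lower, GCLM, the partner of GCLC, 1.43-fold and HSPH1, a heat shock protein, 1.97-fold by 208744_x_at. The other HSPH1 probe set, 206976_s_at, gave -1.10 and was not called (adjusted p = 0.0802). DNAJB1, a co-chaperone of HSP70, was higher by both probe sets, 1.57- and 1.58-fold. The calls of GCLM, HSPH1 and DNAJB1 were lost without LCCTam replicate 2 or any SUM44 array, and that of HSPH1 also without LCCTam replicate 3. Leaving out SUM44 replicate 1, 2 or 3 left 4, 5 and 4 calls in this list, and leaving out LCCTam replicate 2 left 4, all lower.

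Copper shares the metallothioneins as a store. Of 12 probe sets of 9 measured copper genes 1 was called higher, 2 lower and 9 not called. Over all probe sets 7.55% were called higher and 5.96% lower. ATOX1, the copper chaperone of the secretory pathway, rose from 11.01 ± 0.13 to 11.70 ± 0.16 (SD, n = 3; 1.61-fold, adjusted p = 0.0115 by limma). ATP7A, the copper pump that ATOX1 serves, stood by 205197_s_at at 9.05, 8.67 and 8.59 in SUM44 and 7.74, 7.01 and 7.08 in LCCTam, 2.82-fold lower (adjusted p = 0.0056), and by 205198_s_at was 2.3-fold lower. Calls in this list numbered 1 without SUM44 replicate 1 or 3 and 5 without LCCTam replicate 1, which raised calls over all probe sets from 3002 to 6990.

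Glucocorticoids, the other inducers of metallothioneins named above, act through NR3C1, whose 4 probe sets differed by -0.10 to 0.06 with none called. In 3 of them both group means lay below the lower quartile, too dim to tell from background. Of 17 probe sets for NR3C1 and 8 other measured genes of this list 2 were called higher, 2 lower and 13 not called. That stands beside 7.55% of all probe sets called higher and 5.96% lower. Without LCCTam replicate 1 the list had 7 calls, while calls over all probe sets rose from 3002 to 6990. TSC22D3 (GILZ), a classical glucocorticoid target, stood by 208763_s_at at 8.88, 8.96 and 8.95 in SUM44 and at 10.69, 10.76 and 11.01 in LCCTam, 3.7-fold higher (1.89 ± 0.11, adjusted p = 0.00013). By 207001_x_at, which carries the cross-binding mark, TSC22D3 was 2.23-fold higher (adjusted p = 0.00509), and the mean of its probe sets differed by 1.52. CEBPD, a stress-induced factor, was 1.83-fold lower by 203973_s_at (-0.87, adjusted p = 0.00376), while its dim 213006_at gave -0.04 and the mean of its probe sets -0.45. SGK1, a kinase of ion transport, was called lower (-0.53, adjusted p = 0.0191), but both its means, 5.40 and 4.86, lay below the lower quartile, and the call was lost without any SUM44 array (adjusted p up to 0.0927). FKBP5, a chaperone that restrains the receptor, differed by -0.40 ± 0.16 and was not called (adjusted p = 0.142).

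The 8 metallothionein members lie side by side on chromosome 16, in a run of 11 coding metallothionein genes and 5 pseudogenes in the RefSeq gene order. The nearest 5 coding genes with a probe set of their own on each side were read by 20 probe sets. Of these 5 were called higher, none lower and 15 not called, with a median of 0.24, beside 7.55% and 0.07 over all probe sets.

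NUP93, a nuclear pore protein and the first such gene beyond MT1X, stood at 8.89, 8.76 and 8.72 in SUM44 and 9.89, 10.06 and 9.97 in LCCTam, 2.27-fold higher (1.18 ± 0.10, adjusted p = 0.000628). HERPUD1, a stress-induced protein of endoplasmic reticulum degradation, was 4.61-fold higher (10.14 ± 0.13 and 12.34 ± 0.19 SD, n = 3; adjusted p = 0.000123 by limma). On the other side OGFOD1, an oxygenase, was 1.66-fold higher, NUDT21, a factor of RNA 3' end processing, 1.78-fold by 202697_at and CES1, a carboxylesterase, 1.47-fold. OGFOD1 and CES1 each lost the call without LCCTam replicate 2 or any SUM44 array, and NUDT21 without SUM44 replicate 3 (adjusted p = 0.0504) or when averaged with 213461_at, which gave 0.24 (average 0.54, adjusted p = 0.0863).

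**Figure D5:**
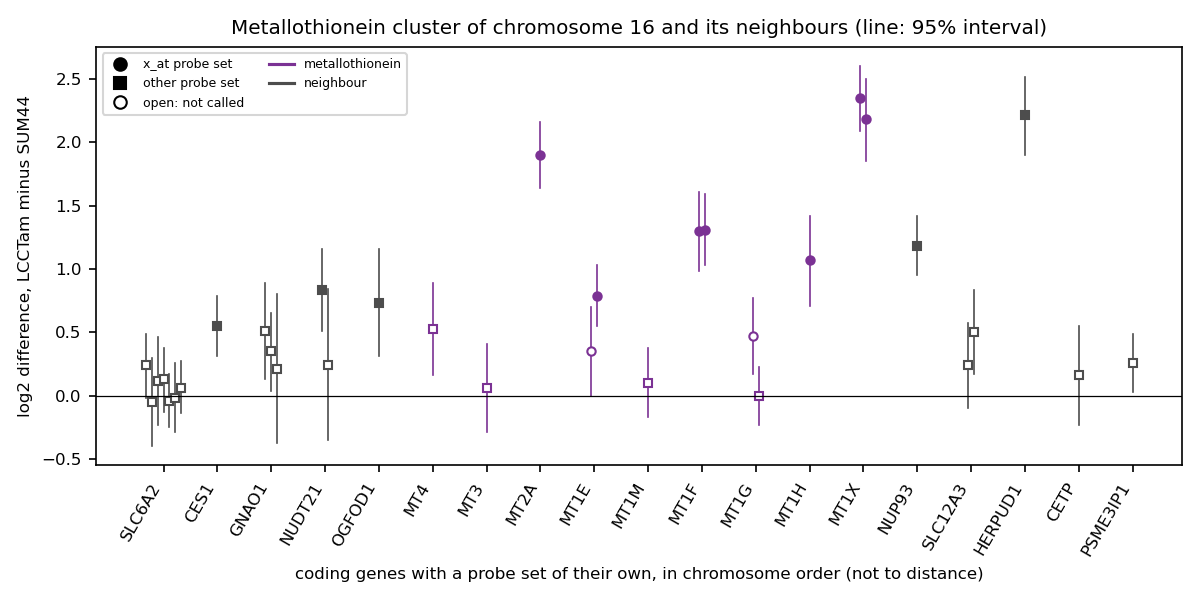
Log2 difference, LCCTam minus SUM44, with 95% intervals, for metallothionein probe sets and their coding neighbours in chromosome order, not to distance. Filled symbols passed an adjusted p under 0.05, and circles mark cross-binding probe sets. HERPUD1 at 2.21 and NUP93 at 1.18 lie above 0 beside MT1X at 2.35 and 2.18.

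Outside the metallothioneins, the profiles most like that of MT2A over the 6 arrays, among 2158 probe sets with an SD of 0.5 or more, were those of ST6GALNAC2, a sialyltransferase, PSPH, the last enzyme of serine synthesis, NUP93, PEX14, a peroxisomal import protein, and HSD17B2, an estradiol-oxidising enzyme. Pearson's r was at least 0.998. Those most like SLC39A6 by 202088_at were CLTC (clathrin heavy chain), MRFAP1L1, CANX (a lectin chaperone), SUB1 (a transcription coactivator) and MACIR, at 0.999 or more. In LCCTam PSPH stood at 7.67, 7.91 and 7.75 and CLTC at 11.10, 10.21 and 9.53, spreads that follow from how the genes were chosen. These correlations describe 6 arrays in 2 groups, which share the contrast between the lines.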

How the data were processed

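Per the labels' protocols, Trizol and RNeasy columns gave the RNA, which was labelled with biotin for Affymetrix arrays. The authors deposited log2 values from RMA, per the submitters' processing notes. No version of RMA is given in the sources used here. RMA makes the arrays' distributions nearly equal, so a change in total RNA per cell would not be seen. Values ran from 3.16 to 14.6, and precision is limited by the 3 arrays of each group.

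Groups came from the sample titles, which call the arrays biological replicates. How the cultures were separated is not stated, so p-values cover only the spread among them, which may be technical. Of 22283 probe sets 68 controls were left out. Symbols were matched by gene ID to RefSeq (GRCh38.p14) for 19053 of the 19065 probe sets with 1 gene. Each of 22215 probe sets was tested two-sided with limma 3.58.1 (lmFit, then eBayes; R 4.3.3; 4 residual and 3.41 prior degrees of freedom), adjusted by Benjamini-Hochberg over all of them and called at an adjusted p under 0.05. Intervals are at 95%. The fit was tested on simulated data.

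The members and lists were chosen with earlier results of these data known. Named were all member probe sets, per list the 2 genes with the smallest adjusted p called in each direction, 5 coding neighbours on each side of the cluster and the 5 profiles most like MT2A and SLC39A6. Luminal markers served to check the cell type. Genes named beyond this (SLC30A1, SLC39A7, SELENOW, CITED2, TXNRD1, GCLM, HSPH1, NR3C1, FKBP5, MT4, MT1B, KRT18 and KRT19) were chosen after their values were seen. Alternatives changed 1 choice at a time: the unit, cross-binding probe sets, trend, scaling, filters on dim probe sets, each array, the replicate block and the threshold.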

Additional observations from a re-analysis of the deposited data

How the results depend on the processing

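Metallothionein calls depended on the unit and on cross-binding probe sets. Of 12 probe sets 7 were called, of 8 genes by their brightest probe set 4, of 8 genes by the mean of their probe sets 5, and without cross-binding probe sets 0 of 3. With any array left out the count was 7 or 8, and it was 7 after cyclic loess, after centring of array medians and at an adjusted p under 0.01. Member calls in all numbered 9, with 5 of 10 genes by the brightest probe set, 2 without cross-binding probe sets and 7 to 10 with an array left out. Near 0 the sign turned for MT1G 210472_at (-0.05 to 0.05 with an array left out), for MT3 (-0.04 after cyclic loess and -0.08 to 0.20 with an array left out) and for MTF1 (-0.16 to 0.00 and -0.12 to 0.10 with an array left out). None of these was called, and the cause was not tested.

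Counts in the gene lists ranged, with an array left out in turn, from 1 to 4 for importers, 0 to 3 for exporters, 1 to 2 for other metallothioneins, 1 to 5 for MTF1 targets, 1 to 5 for copper genes, 3 to 7 for glucocorticoid genes, 4 to 12 for metal and heat stress, 4 to 12 for luminal markers and 0 to 1 for markers of other cell types, and from 1110 to 6990 over all probe sets. At an adjusted p under 0.01 they were 1 for importers, 0 for exporters, 1 for MTF1 targets, 1 for copper genes, 4 for metal and heat stress, 4 for luminal markers and 1052 in all. By the brightest probe set of each gene MTF1 targets had 1 call, luminal markers 5 and all genes 1888, and by the mean of probe sets 1, 5 and 1984. After cyclic loess exporters had 0 calls and markers of other cell types 1. The filter on means left 0 calls for exporters and 2 for glucocorticoid genes. Without cross-binding probe sets other metallothioneins had 0 calls and luminal markers 7.

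Same-numbered cultures deviated together at correlations of 0.48, 0.34 and -0.07, and different-numbered ones at -0.6 to 0.49. These values do not settle whether the numbers pair the cultures, and the main fit left the numbers out. With the replicate block 10 member probe sets were called in place of 9, MT1G 204745_x_at being added, and 3444 in place of 3002 over all. Without detection calls, signal at the level of MT1M cannot be told from background.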
